A study of Rattus norvegicus with 12 samples.

Results

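Cytochromes P450 are haem enzymes of the endoplasmic reticulum that add oxygen to lipophilic drugs, fatty acids and eicosanoids. Those of families 1 to 3 handle mostly foreign compounds, and those of family 4 mostly fatty acids. All of them receive electrons from Por, the NADPH-cytochrome P450 reductase. Liver is their main site, while heart muscle is known for enzymes such as Cyp2j and Cyp4f forms that oxidise arachidonic acid, and for Cyp1b1 in vascular and stromal cells. The genes described here are those whose name on the array starts with Cyp1, Cyp2, Cyp3 or Cyp4 and a letter, and Por. That name rule gave 68 of the 41012 probes that are not controls, for 54 genes: 3 of family 1, 32 of family 2, 5 of family 3, 13 of family 4, and Por.

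The arrays measured RNA of the left ventricle and of whole blood of male Sprague-Dawley rats. In 2 of the 4 groups, 1 for each tissue, amiodarone was given orally at 300 mg/kg per day for 10 days, and in the other 2 the rats received only the vehicle, 1% methylcellulose. Amiodarone is an antiarrhythmic drug, cationic and lipophilic, that is itself cleared by P450 enzymes. The rats weighed 290 to 320 g, and the labels give their age as 10 weeks at the start and also as 11 weeks. Each group had 3 pools with 1 array per pool. The labels do not list which animals formed a pool, so p-values measure the spread between these pools.

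Signal set how much could be seen in each group. Of 43379 spots, 21233 to 25032 were flagged well above background in heart, 14459 to 15548 in vehicle blood and 20625 to 21245 in amiodarone blood. The 75th percentile of signal, to which each array was scaled, was 143 ± 30.9 (SD, n = 3) in vehicle heart and 130 ± 28.2 (SD, n = 3) in amiodarone heart. In blood it was 24.0 ± 2.80 (SD, n = 3) for vehicle and 73.8 ± 15.6 (SD, n = 3) for amiodarone. A level below is the scaled signal, log2 of signal over that percentile, so 0 is the percentile itself. The limit of detection, the lowest level at which a spot carried that flag, lay between -4.43 and -3.32 on the heart arrays, between -1.53 and -1.28 on vehicle blood arrays and between -3.05 and -2.81 on amiodarone blood arrays. All 12 cardiomyocyte markers, Myh6 and Tnnt2 among them, were well above background on every heart array. The red cell markers summed to 11200 to 18500 times the percentile in vehicle blood and 2790 to 5120 times in amiodarone blood. In bulk RNA, fewer cells of a type and less RNA per cell cannot be told apart.

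Sequences of 3 of the probes, as the array files give them, are printed here to show what was hybridised: those of Cyp2e1, which metabolises ethanol, acetone and small drugs, of Cyp4b1, and of Por. Positions are on rat build rn4. No run of 15 or more bases is shared by the probes of different members, and the longest is 13.
Cyp2e1, chr1:200927736-200927795: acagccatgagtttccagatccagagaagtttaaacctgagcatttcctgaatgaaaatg
Cyp4b1, chr5:135922246-135922305: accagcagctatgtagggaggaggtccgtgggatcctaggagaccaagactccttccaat
Por, chr12:22079298-22079446: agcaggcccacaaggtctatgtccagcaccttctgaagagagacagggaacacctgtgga
The Por positions span more than the 60 bases of its probe. The files give no exon or UTR annotation for these positions.

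Of the 54 genes, 27 were well above background on no array of either tissue. Among these were the dioxin-inducible Cyp1a1 and Cyp1a2, the liver forms Cyp2a1, Cyp2a2, Cyp2c12, Cyp2c13, Cyp2c22, Cyp2c79, Cyp2d2 and Cyp2d3, and the steroid and drug oxidases Cyp3a2, Cyp3a9, Cyp3a18 and Cyp3a62. Cyp2a3, Cyp2b21, Cyp2c23, Cyp2f4, Cyp2g1, Cyp2j10, Cyp2j13, Cyp2r1, Cyp2u1, Cyp4a3, Cyp4f39, Cyp4f4 and Cyp4x1 completed the 27. Cyp1a1 was spotted 10 times on each array, and its processed signal stayed between 1.91 and 2.74 units on all 12 arrays, amiodarone pools included. For these genes a change below the background limit was not detectable.

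The remaining 27 genes divided by tissue. 11 were well above background on all 3 arrays of a group in both tissues: Cyp2b1, Cyp2d4, Cyp2d5, Cyp2j4, Cyp2s1, Cyp2t1, Cyp4a1, Cyp4f5, Cyp4f6, Cyp4v3 and Por. Such a complete group was found in heart alone for 5 genes, Cyp1b1, Cyp2e1, Cyp2j3, Cyp4b1 and Cyp4f1. In blood alone it was found for 6, Cyp2b12, Cyp2b15, Cyp2c11, Cyp2c37, Cyp4a2 and Cyp4f17. The other 5, Cyp2b3, Cyp2c7, Cyp2w1, Cyp3a23-3a1 and Cyp4a8, were well above background on 1 to 6 arrays without completing a group. By group, 13 genes were on all 3 arrays in vehicle heart, 14 in amiodarone heart, 14 in vehicle blood and 16 in amiodarone blood. The difference in the dimmest detectable level between the blood groups stands beside those last counts. Family 3 had no gene on a complete group, and family 1 had Cyp1b1 alone.

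**Figure D1:**
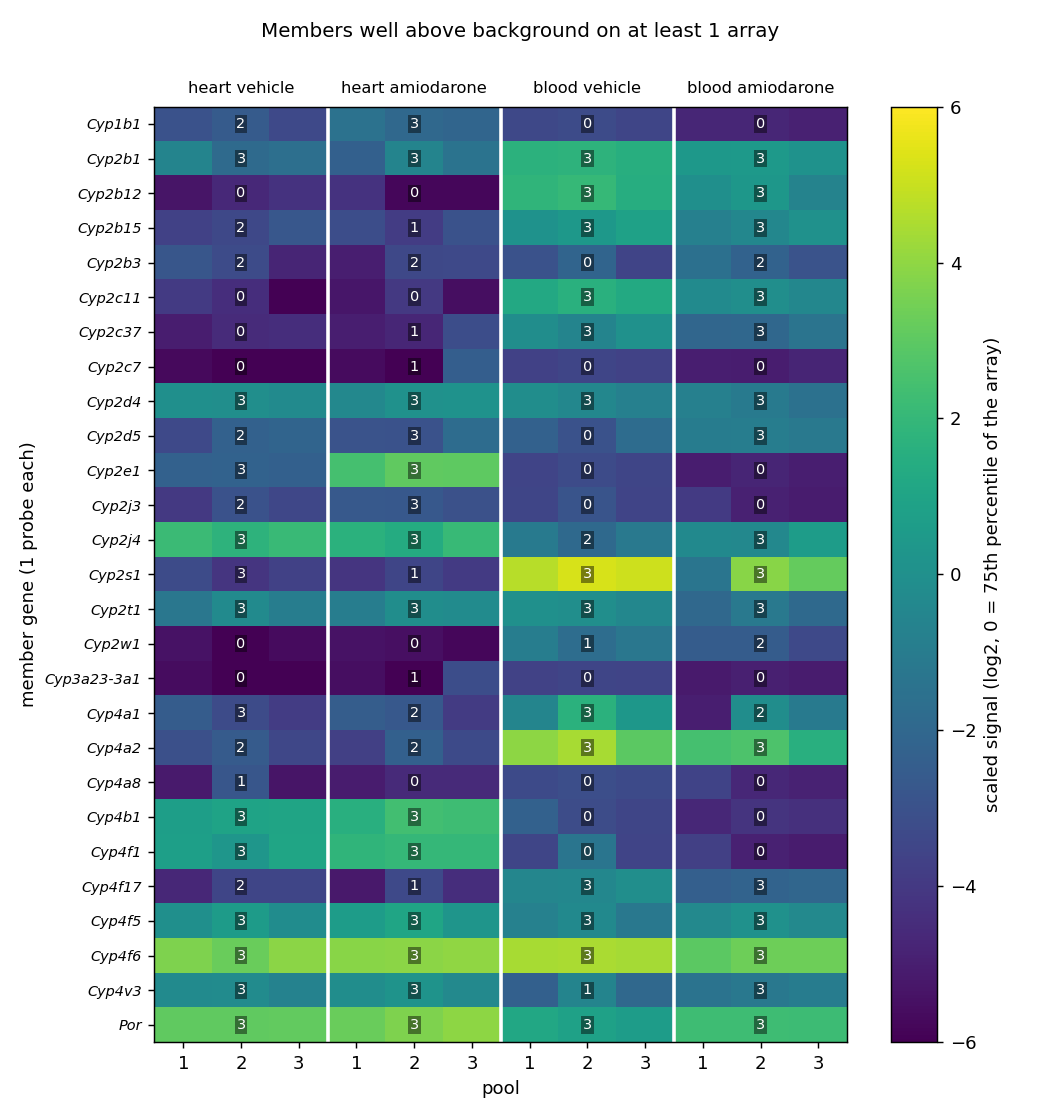
Scaled signal (colour, log2, 0 at the array's 75th percentile) of the 27 members well above background on at least 1 of the 12 arrays, with genes in rows and pools in columns. The white digit in each block of 3 pools is the number of arrays well above background. Cyp2e1 stands at 2.47 to 3.09 in amiodarone heart and at -2.32 to -2.25 in vehicle heart, and Cyp2s1 at 4.69 to 5.26 in vehicle blood.

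In the left ventricle the member with the widest difference was Cyp2e1. Its level was -2.27, -2.25 and -2.32 in the vehicle pools and 2.47, 3.09 and 3.03 in the amiodarone pools. All 3 amiodarone pools were high, all 3 vehicle pools lay close together, and the groups did not overlap. Cyp2e1 rose by 5.15 on the log2 scale (SE 0.19), which is 35.4-fold (limma, adjusted p = 8.06e-05). Before scaling, its processed signal was 23.5 to 36.7 in vehicle and 615 to 1390 in amiodarone heart. The gene is spotted 10 times on each array, and the SD between these spots was 0.06 to 0.29 on the heart arrays. The 2 slides gave similar values, 5.04 over pools 1 and 2 and 5.36 in pool 3.

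Cyp4f1 and Cyp4b1 also rose in heart. Cyp4f1, an omega-hydroxylase of fatty acids and leukotrienes, was at 0.75, 0.29 and 1.07 in vehicle and at 1.85, 1.97 and 1.99 in amiodarone pools, a rise of 1.23 (SE 0.21, 2.35-fold, adjusted p = 0.0134). Cyp4b1, which oxidises medium-chain fatty acids and bioactivates some protoxins, was at 0.71, 0.95 and 1.02 in vehicle pools. Its amiodarone pools were at 1.55, 2.37 and 2.25, a rise of 1.17 (SE 0.23, 2.24-fold, adjusted p = 0.0258). In both genes every amiodarone pool was above every vehicle pool. The call of Cyp4f1 was lost without vehicle pool 1 (adjusted p = 0.0518) or amiodarone pool 2 (0.0533). That of Cyp4b1 held without amiodarone pool 1 and was lost without any other single pool (0.0648 to 0.0906). With the 12 arrays in 1 fit, Cyp4f1 did not pass (0.223). Over all alternatives adjusted p ran from 0.000797 to 0.223 for Cyp4f1 and from 0.0034 to 0.156 for Cyp4b1.

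Cyp1b1, which oxidises oestradiol, retinol and polycyclic hydrocarbons, rose close to the limit of detection. Its vehicle pools were at -2.99, -2.54 and -3.37, with 2 of 3 arrays well above background, and its amiodarone pools at -1.48, -1.95 and -2.09. The groups did not overlap, and the rise was 1.13 (SE 0.25, 2.18-fold, adjusted p = 0.0377). This probe lies at chr6:2546002-2546061 on rn4. A second Cyp1b1 probe, at chr6:2548660-2548719, was well above background on no array. The call was lost in 4 of the 6 fits without 1 pool, and kept only without vehicle pool 2 (0.0429) or amiodarone pool 3 (0.0485). With normexp background correction the difference was 0.31 and did not pass, and over all alternatives adjusted p ran from 0.0125 to 0.193. On the first slide, pools 1 and 2, the differences were 1.39 for Cyp4f1, 1.13 for Cyp4b1 and 1.05 for Cyp1b1. On the second slide, pool 3, they were 0.92, 1.23 and 1.28.

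**Figure D2:**
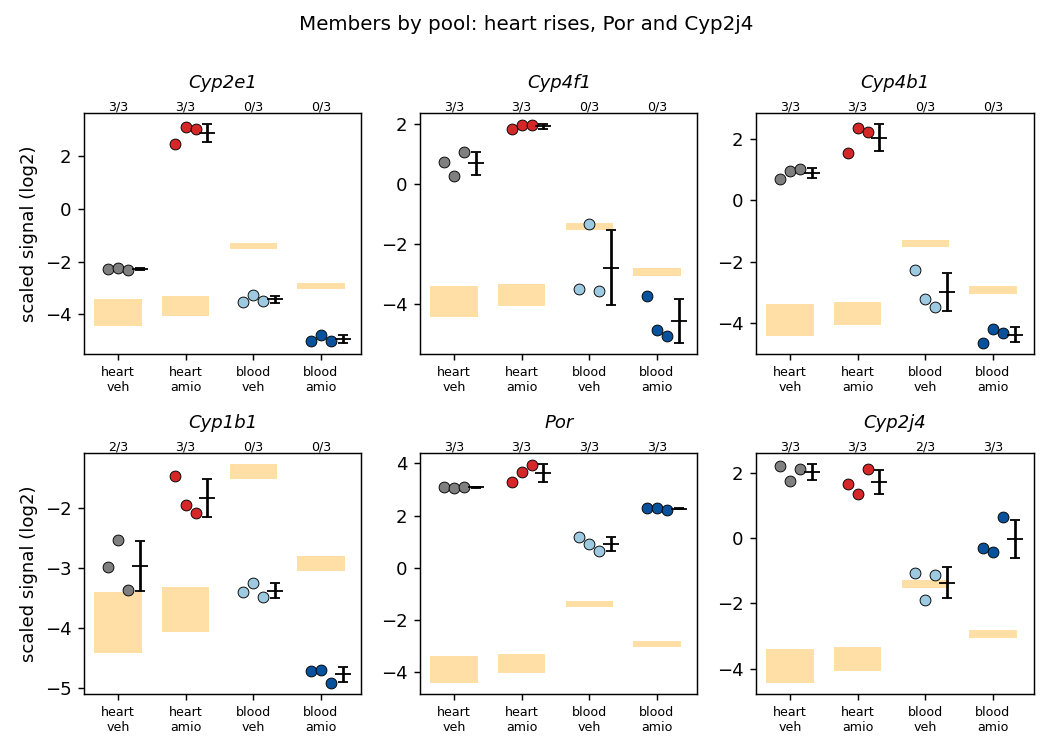
Scaled signal (log2, vertical axis) of 6 members in each pool of the 4 groups, with mean and SD (bars, n = 3) beside the points and the number of arrays well above background above them. Orange bands span the limit of detection over the 3 arrays of a group. Cyp2e1, Cyp4f1, Cyp4b1 and Cyp1b1 are above their vehicle pools in every amiodarone heart pool, and their blood points carry no array well above background.

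In all, 4 of the 16 members tested in heart were past the threshold, all of them higher, which is 25%, and 8.57% of all 17466 features were past it. Of those features 4.33% were higher and 4.23% lower. The members' differences ran from -0.31 to 5.15 with a median of 0.35, and 13 of 16 were above 0, while the median of all features was 0.02. In 5 members the groups did not overlap, all of them higher (Por was the other one), and 32.6% of all features had groups that did not overlap. The 16 had passed a filter that asks for 1 complete group, so they are not all members. Cyp1b1, Cyp2d5 and Cyp2j3 passed it through the amiodarone group alone, and Cyp2s1 and Cyp4a1 through the vehicle group alone. With the filter that asks for all 6 heart arrays, 3 of 11 members were past the threshold, and 1380 of all 15862 features were.

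Por, the electron donor of the whole family, was at 3.08, 3.06 and 3.11 in vehicle heart and at 3.27, 3.68 and 3.94 in amiodarone heart. Its difference of 0.54 (SE 0.19) did not pass the threshold (adjusted p = 0.125). Without amiodarone pool 1 it was 0.72 and passed (adjusted p = 0.0308), and the adjusted p was above 0.05 in the other alternatives run. The arachidonic acid epoxygenases of the heart did not pass it either. Cyp2j3 differed by 0.68 (SE 0.26, adjusted p = 0.157), close to its detection limit, with levels of -4 to -2.99 in vehicle and -3.04 to -2.66 in amiodarone pools. Cyp2j4 was at 1.74 to 2.19 in vehicle and 1.36 to 2.10 in amiodarone pools, and its groups overlapped (difference -0.31, SE 0.22, adjusted p = 0.434).

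The other members of families 2 and 4 gave no call in heart. Cyp4f6, a fatty acid hydroxylase, was at 3.25 to 3.90 in vehicle and 3.88 to 4 in amiodarone pools (difference 0.32, SE 0.19, adjusted p = 0.327). Cyp4f5 differed by 0.53 (SE 0.27, adjusted p = 0.267) and Cyp4v3 by 0.29 (SE 0.19, adjusted p = 0.387). Cyp4a1, a peroxisome proliferator target in liver, was near its limit at -3.85 to -2.52 in vehicle and -3.93 to -2.46 in amiodarone pools (difference 0.19, SE 0.45, adjusted p = 0.83). In family 2, Cyp2t1 differed by 0.38 (SE 0.30), Cyp2d4 by 0.06 (SE 0.18), Cyp2d5 by 0.01 (SE 0.43), Cyp2b1 by -0.09 (SE 0.48) and Cyp2s1 by -0.17 (SE 0.26). None of these 5 passed, with adjusted p from 0.483 to 0.99.

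Markers of other cell types were read beside these rises. Amiodarone heart pool 3 had 12 of 15 hepatocyte markers well above background, and the other heart pools had 2 to 5. Their summed level was 18.6 to 21.4 in vehicle and 18.1 to 26.1 in amiodarone heart, most of it Ttr. Albumin (Alb) was at 1.18 in that pool, at -5.34 and -3.65 in amiodarone pools 1 and 2, and at -1.84, -0.36 and -1.52 in the vehicle pools. Cyp2e1, itself abundant in hepatocytes, was at 2.47 and 3.09 in the amiodarone pools in which Alb was not well above background. Without amiodarone pool 3, 3 members and 1104 of all 17466 features were past the threshold, and Cyp2e1 differed by 5.06. 2 liver P450 genes were seen only in that pool: Cyp2c7 stood at -2.42 there and at -6.52 to -5.63 in the other heart pools, and Cyp3a23-3a1 at -3.18 against -6.46 to -5.57. The Cyp2c7 values are those of 1 probe, and the other Cyp2c7 probes were well above background on no array.

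**Figure D3:**
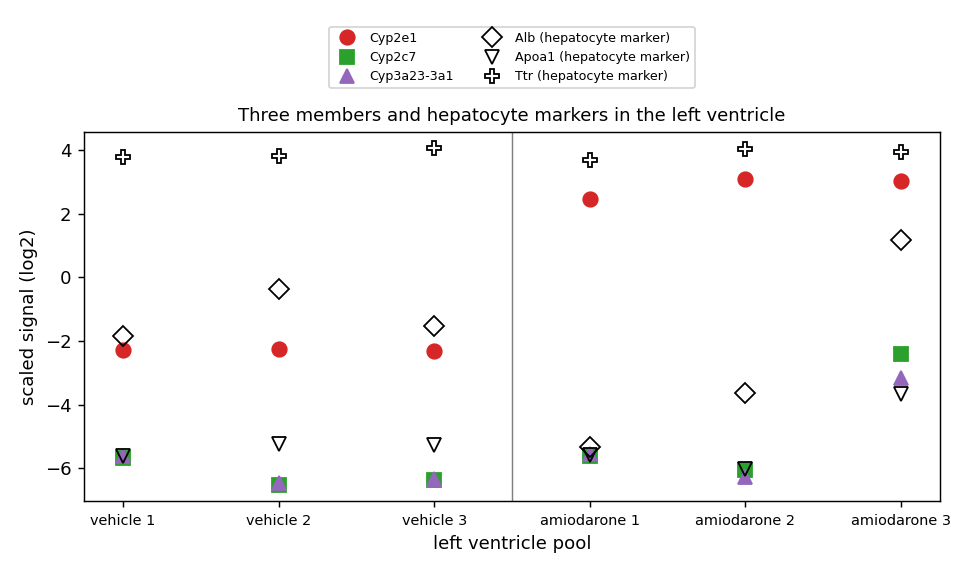
Scaled signal (log2, vertical axis) of 3 members (filled) and 3 hepatocyte markers (open), 1 probe each, in each left ventricle pool (horizontal axis). Cyp2c7, Cyp3a23-3a1 and Alb are high in amiodarone pool 3, at -2.42, -3.18 and 1.18, while Cyp2e1 is at 2.47 or above in all 3 amiodarone pools and Ttr does not separate the groups.

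Other cell types also moved in heart. The 7 adipocyte markers on the array summed to 21.9 to 29.1 in vehicle and 31.6 to 53.3 in amiodarone pools, with 5 well above background in amiodarone pool 3 and 2 in each other pool. Red cell markers fell in 5 of 8 cases, from 67.3 to 97.3 summed in vehicle to 17.6 to 20.8 in amiodarone heart. Fibroblast markers fell in 4 of 6, from 237 to 319 down to 129 to 176. Monocyte and macrophage markers rose in 2 of 8 tested and summed to 39.7 to 56.8 in vehicle and 70.8 to 84.8 in amiodarone heart. Endothelial markers, 1 of 8 of them lower, summed to 108 to 120 and 112 to 142. T and natural killer cell markers had no call among 7 (4.46 to 5.7 and 4.12 to 4.55), B cell and lung epithelium markers were not tested there, and 2 of 3 neutrophil markers tested rose, although the list summed to 10.7 to 12.6 in vehicle and 8.68 to 10.6 in amiodarone heart. Of 12 cardiomyocyte markers 1 rose, and their sum was 7570 to 10400 and 9220 to 10100. The part of these cell types in the P450 values was not tested.

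The rest of the pathway was read from lists of redox partners with haem genes, receptors and targets. Among 11 redox partners and haem genes in heart, 1 was past the threshold. It was Alas1, which catalyses the first step of haem synthesis and is not itself a redox partner. Alas1 dropped by 0.97 (SE 0.16, adjusted p = 0.0124), from 8.5 to 8.8 in vehicle to 7.46 to 7.8 in amiodarone pools. Cytochrome b5, Cyb5a, differed by 0.31 (SE 0.13, adjusted p = 0.196) and the haem-binding Pgrmc1 by 0.66 (SE 0.17, adjusted p = 0.0598), which passed with normexp (0.59, 0.0201), with array median scaling (0.75, 0.0425), with the slide as a block (0.0457) and without amiodarone pool 3 (0.79, 0.043). Their list had a median of 0.04. The call of Alas1 was lost without vehicle pool 1 (0.0535) or vehicle pool 3 (0.0564) and in 3 of 12 other alternatives (up to 0.121).

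Of 10 tested receptors and partners that control P450 genes, 1 rose. Nr1i2, the pregnane X receptor, was at -0.24, -0.81 and -0.48 in vehicle and at 0.52, 0.77 and 0.56 in amiodarone heart, a rise of 1.13 (SE 0.18, adjusted p = 0.0119). Its groups did not overlap, but the call was lost without vehicle pool 3 (0.0518) or amiodarone pool 2 (0.0504) and in 4 of 12 other alternatives (up to 0.104). Nr1i3, the constitutive androstane receptor, and Ahr, the aryl hydrocarbon receptor, were well above background on no array. Ppara, the fatty acid receptor that drives Cyp4a genes in liver, differed by -0.33 (SE 0.23, adjusted p = 0.418), and the antioxidant factor Nfe2l2 by 0.27 (SE 0.19, adjusted p = 0.412).

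Known targets of these receptors outside the P450 genes gave the following counts in heart. Of 9 PPAR-alpha targets tested, 4 rose and none fell, with a median of 1.17. Among them, Acot1, an acyl-CoA thioesterase, rose by 1.91 (SE 0.16, adjusted p = 0.000914), Pdk4 by 2.11 (SE 0.36) and Ehhadh by 1.17 (SE 0.18). Ehhadh lost its call without vehicle pool 1 (0.05) or vehicle pool 2 (0.0503) and with normexp, at 0.46. Pdk4 lost it without vehicle pool 2, vehicle pool 3 or amiodarone pool 2 (0.0547 to 0.0691), and Acot1 with the 12 arrays in 1 fit (0.149). Of 6 targets of the constitutive androstane and pregnane X receptors, Gadd45b rose by 1.1 (SE 0.17, adjusted p = 0.00954), and Alas1 and the bile canalicular pump Abcc2 (-1.03, SE 0.23, adjusted p = 0.0353) fell. The call of Abcc2 was lost in all 6 fits without 1 pool (0.0529 to 0.119). Of 5 aryl hydrocarbon receptor targets, Aldh3a1 rose by 1.12 (SE 0.15, adjusted p = 0.00537), and the quinone reductase Nqo1 differed by 0.34 (SE 0.21, adjusted p = 0.35). Aldh3a1 and Gadd45b lost their calls with no scaling (0.106 and 0.12), with no filter (0.058 and 0.0797) and on the first slide alone (0.0721 and 0.0893). None of 3 epoxide hydrolases passed the threshold, with 0.84 (SE 0.29, adjusted p = 0.122) for Ephx1 and 0.81 (SE 0.34, adjusted p = 0.19) for Ephx2. Of 8 tested P450 genes of other families, Cyp26b1, which breaks down retinoic acid, rose by 1.68 (SE 0.15, adjusted p = 0.00116). The steroidogenic Cyp11a1 differed by -0.82 (SE 0.20, adjusted p = 0.051).

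In whole blood, 12 of 17 members tested were past the threshold, 3 higher and 9 lower, which is 70.6%, and 67.4% of all 15663 features were past it, 40.3% higher and 27.1% lower. Cyp2d5, Cyp2j4 and Cyp4v3 passed the filter through the amiodarone group alone, and Cyp4a1 through the vehicle group alone. With the filter that asks for all 6 blood arrays, 12 of 13 members were past the threshold, 1 higher (Por) and 11 lower. Of all 10655 features under that filter 8160 were past it, 4302 higher and 3858 lower. Over the 17 members and 15663 features of the first filter, the medians were -1.31 and 0.44. In 13 members the groups did not overlap, 3 of them higher and 10 lower, and 73.8% of all features had groups that did not overlap. These levels are relative to a percentile that was about 3 times brighter in the amiodarone arrays. Without scaling, the median of all features moved from 0.44 to 2.04, 6 members were past the threshold, all higher, and 0 were lower. With normexp background correction 3 were, all lower, and the median of all features was 0.08. Each of the 9 falls is therefore a fall relative to the percentile, and the unscaled signal is given with it.

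Por, Cyp2d5 and Cyp2j4 were higher in amiodarone blood. With normexp their differences were 0.71, 0.13 and 0.29, and none of them passed (adjusted p = 0.118, 0.493 and 0.193). Por was at 1.18, 0.89 and 0.63 in vehicle and at 2.28, 2.28 and 2.23 in amiodarone blood, a rise of 1.36 (SE 0.19, 2.57-fold, adjusted p = 0.00147). Its unscaled signal was 38.6 to 59.4 in vehicle and 275 to 424 in amiodarone pools. Every amiodarone pool was above every vehicle pool on both scales. Cyp2j4 was at -1.06, -1.91 and -1.13 in vehicle blood, where 2 of 3 arrays were well above background, and at -0.30, -0.42 and 0.63 in amiodarone blood. It rose by 1.33 (SE 0.35, 2.52-fold, adjusted p = 0.0132).

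Cyp2d5, a member of the debrisoquine-hydroxylating subfamily, was well above background on 0 of 3 vehicle blood arrays, where it read -2.27, -2.97 and -1.78. On the amiodarone arrays it was at -0.94, -0.90 and -1.16, at least 1.31-fold higher (adjusted p = 0.00726). In bounds of this kind the dim group is set at the limit of detection of each array, or at the probe's own value where that is higher. Such a bound applies to the scaled level only.

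The 9 members that fell relative to the percentile were genes of the Cyp2b, Cyp2c, Cyp2t, Cyp4a and Cyp4f subfamilies, and 6 of the 9 had a complete group above background in blood alone. Cyp4f17 was at -0.48, -0.44 and -0.07 in vehicle and at -2.37, -2.18 and -2.06 in amiodarone blood, a fall of 1.88 (SE 0.19, adjusted p = 0.00093). Its groups did not overlap on the scaled level. Before scaling its signal was 15.4 to 23.9 and 12.5 to 18.5, and the groups overlapped.

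Cyp2b12, which in the rat is known from sebaceous glands and forms epoxides of arachidonic acid, was at 1.86, 2.03 and 1.48 in vehicle blood. Its amiodarone pools were at -0.01, 0.34 and -0.65, a fall of 1.90 (SE 0.29, adjusted p = 0.00181). Before scaling it read 69.6 to 95.3 in vehicle and 49.0 to 87.1 in amiodarone pools. Cyp2c11, the male-specific liver form of the rat, named Cyp2c on the array, was at 1.25, 1.62 and 1.28 and then at -0.28, -0.05 and -0.44. It fell by 1.64 (SE 0.20, adjusted p = 0.00103), and its unscaled signal was 60.6 to 64.4 and 55.0 to 71.9. In both genes the scaled levels of the groups did not overlap and the unscaled ones did.

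Cyp4a2, which makes 20-hydroxyeicosatetraenoic acid in rat kidney, was at 3.97, 4.43 and 2.99 in vehicle and at 2.46, 2.63 and 1.56 in amiodarone blood, and fell by 1.58 (SE 0.43, adjusted p = 0.0142). Its unscaled signal was 199 to 451 and 226 to 481. Cyp4f6 was at 4.43, 4.49 and 4.4 in vehicle and at 2.96, 3.37 and 3.33 in amiodarone blood and fell by 1.22 (SE 0.18, adjusted p = 0.00167). Before scaling, its signal was 471 to 565 in vehicle and 586 to 772 in amiodarone pools, so that every amiodarone pool was the brighter one on that scale.

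The other 4 falls followed the same pattern on the scaled level. Cyp2c37 fell by 1.60 (SE 0.26, adjusted p = 0.00225), from -0.58 to 0.09 down to -2.04 to -1.39. Its unscaled signal was 13.9 to 26.5 in vehicle and 14.3 to 29.4 in amiodarone pools. Cyp2t1, a P450 with few known substrates, fell by 1.5 (SE 0.28, adjusted p = 0.00328), from -0.46 to 0.03 down to -1.95 to -1.13, with unscaled signals of 18.2 to 26.7 and 20.3 to 26. Cyp2b1, the phenobarbital-inducible form of rat liver, fell by 1.31 (SE 0.18, adjusted p = 0.00138), from 1.5 to 1.76 down to 0.14 to 0.49, with unscaled signals of 70.9 to 86.2 and 80 to 117. Cyp2b15 was at 0.14 to 0.89 in vehicle and -0.79 to 0.08 in amiodarone blood, and fell by 0.86 (SE 0.29, adjusted p = 0.0332), with unscaled signals of 27.6 to 46.2 and 42.2 to 81.3. For Cyp2b1 and Cyp2b15 these values come from 1 probe each. The other probes of these genes were well above background on no blood array. The differences without scaling were 0 for Cyp2c37, 0.1 for Cyp2t1, 0.29 for Cyp2b1 and 0.74 for Cyp2b15, and none of these 4 passed. The call of Cyp2b15 was lost in 4 of the 6 fits without 1 pool: vehicle pool 2 (0.0631), vehicle pool 3 (0.084), amiodarone pool 1 (0.109) and amiodarone pool 2 (0.0813). It was also lost with array median scaling (-0.56, 0.181). The 12 members past the threshold in blood had the same sign on both slides.

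**Figure D4:**
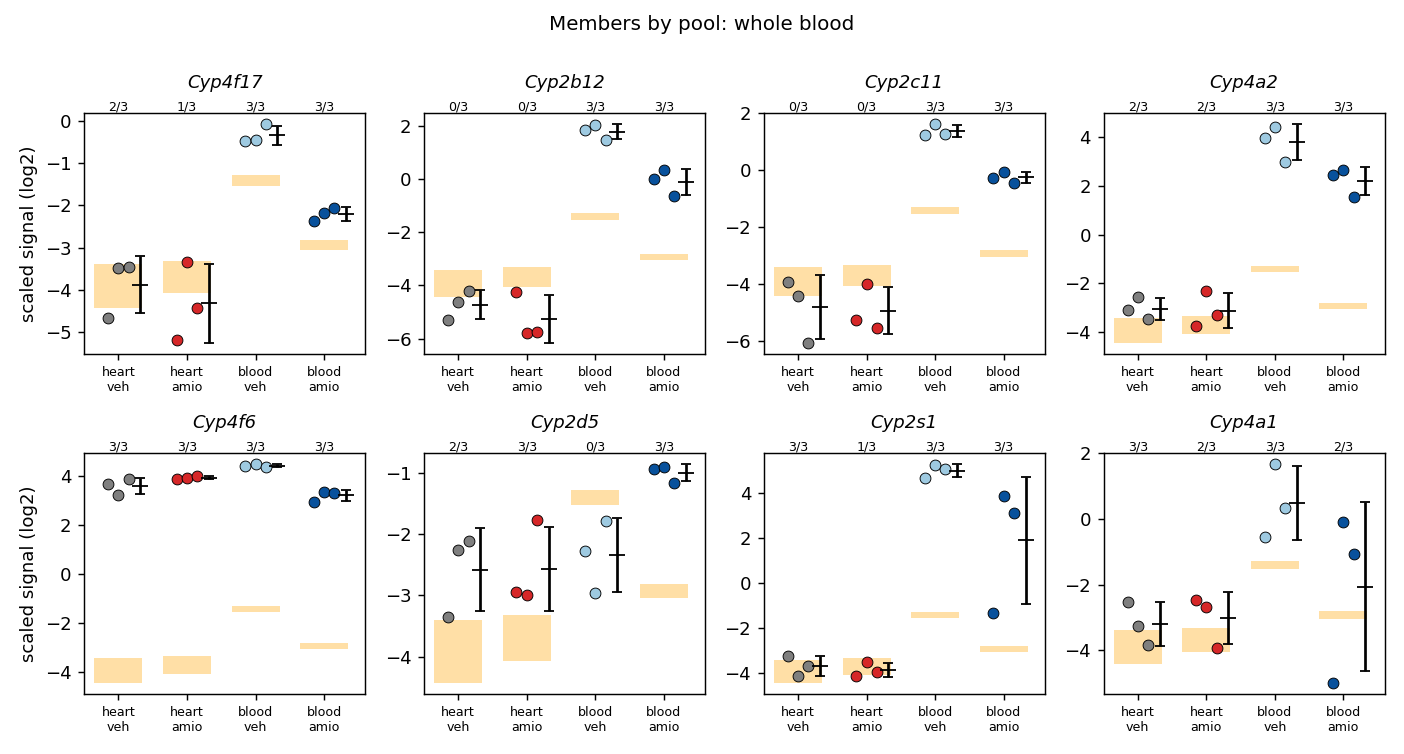
Scaled signal (log2, vertical axis) of 8 members in each pool of the 4 groups, drawn as in the plot of the heart members (points are pools, bars mean and SD, n = 3, orange bands the limit of detection). Cyp4f17, Cyp2b12, Cyp2c11, Cyp4a2 and Cyp4f6 are lower in all 3 amiodarone blood pools, Cyp2d5 is higher, and amiodarone blood pool 1 stands below the others for Cyp2s1 (-1.32) and Cyp4a1 (-5.00).

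2 members varied widely between the amiodarone blood pools. Cyp2s1, an extrahepatic P450 of epithelia, was at 4.69, 5.26 and 5.07 in the vehicle pools and at -1.32, 3.89 and 3.15 in the amiodarone pools. Pool 1 was far below pools 2 and 3. All 3 were below the vehicle pools, but the difference of -3.10 (SE 1.22) had adjusted p = 0.0544. Without amiodarone pool 1 it was -1.49 (adjusted p = 0.011), and over the alternatives its adjusted p ran from 0.011 to 0.15. With the 12 arrays in 1 fit it passed (0.0158).

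Cyp4a1 was at -0.56, 1.67 and 0.34 in vehicle blood and at -5.00, -0.10 and -1.08 in amiodarone blood, where pool 1 was not well above background. The groups overlapped, and the difference was -2.54 (SE 1.22, adjusted p = 0.0974). Without that pool it was -1.07 (adjusted p = 0.199). The same pool had the lowest red cell sum of the blood arrays, 2790. Cyp2d4 (difference -0.66, SE 0.26, adjusted p = 0.0577), Cyp4f5 (0.52, SE 0.27, adjusted p = 0.123) and Cyp4v3 (0.43, SE 0.43, adjusted p = 0.392) completed the members tested. Of the 3 Cyp4v3 probes, the brightest one gave that value. The other 2 were well above background on 0 of 3 vehicle and all 3 amiodarone blood arrays, with means of -3.44 and -2.85 in vehicle and -2.05 and -1.68 in amiodarone blood. With every probe as a feature of its own, 14 of 19 member probes were past the threshold, 5 of them higher. Of all 18115 probes tested that way 11948 were past it, 7353 of them higher.

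Blood cell markers moved with the drug as well, as did most blood features, 40.3% of them higher and 27.1% lower. All 8 red cell markers tested fell. Neutrophil markers rose in 6 of 8 and summed to 63.8 to 110 in vehicle and 242 to 377 in amiodarone blood. Markers of T and natural killer cells rose in 6 of 9, from 255 to 317 to 360 to 404 summed, and those of monocytes and macrophages rose in 5 of 7 and fell in 1, at 211 to 276 and 519 to 614. B cell markers had no call among 3, at 22.3 to 28.7 and 22.8 to 25.2. The 2 adipocyte markers tested, Cfd and Retn, rose (list sum 11.1 to 15.2 and 61.1 to 102). Adipoq, Plin1, Fabp4, Cidec and Lep were well above background on no blood array. Endothelial markers rose in 3 of 4 and fell in 1 (15.7 to 23.4 and 31.4 to 57.9), and both fibroblast ones fell (18.0 to 21.4 and 7.49 to 9.03). Of the lung epithelium markers 1 of 3 rose and 1 fell (3.24 to 4.47 and 4.18 to 8.26), and of the hepatocyte markers 1 of 2 rose and 1 fell (15.8 to 20.8 and 44.7 to 58.9), with Alb well above background on no blood array. Of the 12 cardiomyocyte markers, 3 were tested, 2 higher and 1 lower. The part of the cell makeup in the P450 values was not tested.

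Among the redox partners and haem genes in blood, 6 of 11 rose and 2 fell, with a median of 0.54. Of all blood features 40.3% were higher and 27.1% lower, with a median of 0.44. Por was 1 of the 6, with the mitochondrial donors Fdx1 and Fdxr, Cyb5b, Pgrmc1 and Alas1, and Cyb5r3 fell by 0.63 (SE 0.23, adjusted p = 0.0427). When single pools were left out, Cyb5r3 lost its call in 5 of 6 cases (0.0568 to 0.126) and kept it without vehicle pool 1, and without scaling its difference was 0.97. Pgrmc1 lost its call in 5 of the 6 (0.0872 to 0.124) and kept it without vehicle pool 3. Cyb5b lost it without vehicle pool 2, amiodarone pool 1 or amiodarone pool 2, and Fdxr without vehicle pool 2 or amiodarone pool 1. With normexp none of Por, Fdx1, Fdxr, Cyb5b, Pgrmc1, Alas1, Cyb5r3 and Hmox1 passed. Alas1 rose by 1.06 (SE 0.22, adjusted p = 0.00565), from 2.81 to 3.38 to 3.84 to 4.24, and the haem oxygenase Hmox1 fell by 1.02 (SE 0.22, adjusted p = 0.00596). The fall of Hmox1 turned to a difference of 0.58 without scaling. Cyb5a differed by 0.29 (SE 0.19, adjusted p = 0.201). Of 8 receptors tested, 3 rose and 3 fell: Nfe2l2 rose by 1.68 (SE 0.21, adjusted p = 0.00115), and Hnf4a, a liver-enriched receptor, fell by 2.16 (SE 0.21, adjusted p = 0.000923). The glucocorticoid receptor Nr3c1 also rose, and the retinoid X receptors Rxra and Rxrg also fell. Rxra differed by 0.4 without scaling, and none of Nr3c1, Rxra and Rxrg passed with normexp. Nr1i2 and Ppara were well above background on no blood array.

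Targets in blood were few, and 67.4% of all blood features were past the threshold, 40.3% higher and 27.1% lower. Of 5 aryl hydrocarbon receptor targets 2 rose, Nfe2l2 and Tiparp (1.38, SE 0.25, adjusted p = 0.00298), and Ugt1a6, which glucuronidates phenols, fell by 1.32 (SE 0.23, adjusted p = 0.00264), a difference of 0.29 without scaling. Of 4 PPAR-alpha targets 2 rose: Cpt1a, the gate of mitochondrial fatty acid uptake, was at least 3.21-fold higher (adjusted p = 0.000923), and Acadm rose by 0.90 (SE 0.20, adjusted p = 0.00651). All 3 tested targets of the constitutive androstane and pregnane X receptors rose: Alas1, Por and Gadd45b (0.86, SE 0.20, adjusted p = 0.00745). Ephx1, the 1 epoxide hydrolase tested, differed by -0.37 (SE 0.26, adjusted p = 0.236). Of 4 tested P450 genes of other families, 3 rose and 1 fell. Tbxas1, thromboxane synthase of platelets and macrophages, rose by 1.45 (SE 0.20, adjusted p = 0.00137), and the sterol demethylase Cyp51 was at least 1.35-fold higher (adjusted p = 0.0151). Cyp20a1 was the other one higher, with 0 of 3 vehicle arrays well above background, and its amiodarone level was too low to give a bound on the fold. Its call was lost without amiodarone pool 1 (0.0646) or amiodarone pool 2 (0.0785). Cyp27b1, which activates vitamin D, fell by 1.56 (SE 0.43, adjusted p = 0.0152), a difference of 0.04 without scaling. Of these called genes only Nfe2l2 passed with normexp, and the others had adjusted p from 0.0528 (Cpt1a) to 0.536 (Cyp20a1). Cyp51 and Cyp20a1 also did not pass on the first slide alone (0.0955 and 0.073) or with the authors' deposited values (0.16 and 0.071). Without amiodarone pool 2, Cyp51 did not pass either (0.0502).

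The drug difference was then compared between the tissues directly. In 1 fit of the 12 arrays, heart minus blood, 10 of 22 members were past the threshold, 8 above 0 and 2 below, which is 45.5%, and 46.5% of all 20053 features were past it. The median was 1.51 over the members and -0.06 over all features. Without scaling the direction turned, with 1 member above 0 and 5 below (median -0.22) and 197 features above and 12612 below. With normexp, 4 members were above 0 and none below. Over features that passed the filter in both tissues, 4 of 11 members were past the threshold, and 51.3% of all features were. Those 4 were Cyp4f6, at 0.32 in heart and -1.22 in blood (difference 1.55, SE 0.27, adjusted p = 0.00141), Cyp2t1, at 0.38 and -1.50 (1.88, SE 0.45, adjusted p = 0.00687), Cyp2j4, at -0.31 and 1.33 (-1.64, SE 0.46, adjusted p = 0.0139), and Por, at 0.54 and 1.36 (-0.82, SE 0.28, adjusted p = 0.0323). The call of Por was lost in 10 of the 12 fits without 1 pool, kept only without amiodarone heart pool 3 or vehicle blood pool 1, and lost in 3 further alternatives (adjusted p up to 0.719). None of these 4 passed with normexp, and without scaling Cyp2t1 (0.15) and Cyp4f6 (-0.19) did not pass. Cyp4f5 differed in neither direction by more than its error (0.01, SE 0.41).

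For the members that blood arrays did not measure, the blood term is the scaled background. That holds for Cyp2e1 (6.64, SE 0.26, adjusted p = 3.3e-07), Cyp4f1 (2.99, SE 0.75), Cyp4b1 (2.56, SE 0.43), Cyp1b1 (2.52, SE 0.32) and Cyp2j3 (2, SE 0.46). The unscaled signal of Cyp2e1 in blood was 2.08 to 2.7 on all 6 arrays, and its scaled values of -3.54 to -3.28 in vehicle and -5.02 to -4.77 in amiodarone blood differ through the percentile. Cyp2c37 (1.97, SE 0.58, adjusted p = 0.0182) was the reverse case, with 0 of 3 vehicle and 1 of 3 amiodarone heart arrays well above background.

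**Figure D5:**
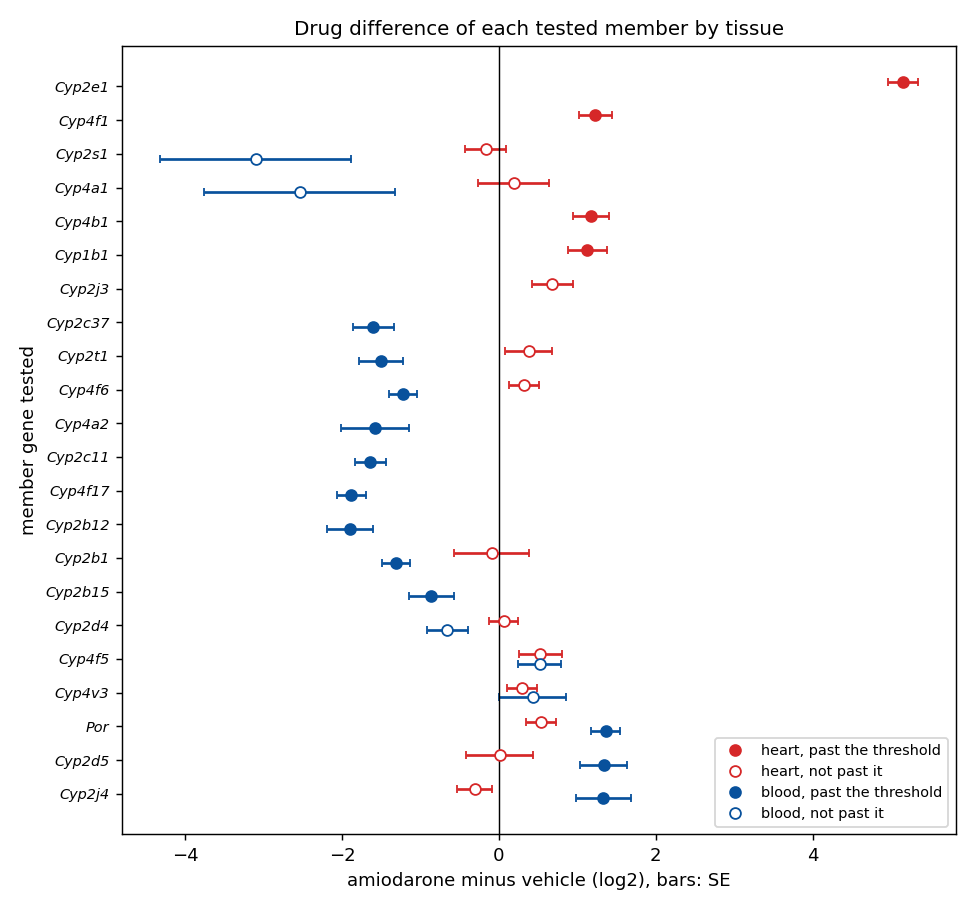
Amiodarone minus vehicle (log2, horizontal axis, bars SE) of the 22 members tested in heart (red) or blood (blue), 1 gene per row, with filled points past the threshold. In heart the filled points are Cyp2e1 at 5.15 and Cyp4f1, Cyp4b1 and Cyp1b1 near 1, and in blood 9 lie below 0 and Por, Cyp2d5 and Cyp2j4 above it.

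The tissues were also compared without the drug. Vehicle heart and vehicle blood differed in 17 of 22 members, 7 higher in heart and 10 higher in blood, which is 77.3%. Of all features 81.1% differed, 42.2% higher in heart and 38.9% higher in blood, so the members' share was close to that of all features. The split moved with the scaling. Without it, 13 members were higher in heart and 6 in blood (features 14560 and 2957), and with normexp 4 and 14 (features 6472 and 10132). Each slide held 1 tissue and the extraction kits differed, so tissue and slide cannot be told apart. Heart was higher for Cyp4b1, at least 4.86-fold (adjusted p = 2.16e-07), for Cyp4f1, at least 4.26-fold (adjusted p = 6.75e-05), for Cyp2j4, by 3.38 (SE 0.32), and for Por, by 2.19 (SE 0.20). Blood was higher for Cyp2b12, at least 54.5-fold (adjusted p = 4.36e-08), for Cyp2c11, at least 41.0-fold (adjusted p = 2.78e-07), and for Cyp2c37, at least 13.6-fold (adjusted p = 8.87e-07). These bounds apply to this scaling alone. Over the other settings with all pools or 1 slide, heart minus blood was -6.51 to -2.22 for Cyp2b12 and -6.23 to -2.04 for Cyp2c11. It was -4.45 to -1.61 for Cyp2c37, 1.07 to 6.44 for Cyp4b1 and 1.04 to 6.05 for Cyp4f1. Cyp2s1 differed by -8.70 (SE 1.00) and Cyp4a2 by -6.84 (SE 0.45).

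The 5 genes without a complete group were seen as follows. Cyp2b3 was well above background on 2 of 3 arrays in vehicle heart, amiodarone heart and amiodarone blood, at -4.76 to -2.81, -5 to -3.36 and -2.94 to -1.56. Cyp2w1, known from fetal gut and tumours, was so on 1 vehicle and 2 amiodarone blood arrays, at -1.69 to -0.92 and -3.35 to -2.5, and Cyp4a8 on vehicle heart array 2 alone, at -2.77. Cyp2c7 and Cyp3a23-3a1 were so on amiodarone heart array 3, as given above.

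Promoters from RefSeq on build GRCr8 are shown for 2 of the members that rose in heart, Cyp2e1 and Cyp1b1. Promoters of 45 of the 54 members were found. The 250 bases before the start of Cyp2e1, chr1:205269717-205269966 (plus strand), hold 1 TATAAA, in capitals, 49 bases before the start. Those of Cyp1b1, chr6:21094315-21094564 (plus strand), hold 2 copies of GCGTG, the core of the element bound by the aryl hydrocarbon receptor, in capitals where one reads as its reverse complement.
Cyp2e1: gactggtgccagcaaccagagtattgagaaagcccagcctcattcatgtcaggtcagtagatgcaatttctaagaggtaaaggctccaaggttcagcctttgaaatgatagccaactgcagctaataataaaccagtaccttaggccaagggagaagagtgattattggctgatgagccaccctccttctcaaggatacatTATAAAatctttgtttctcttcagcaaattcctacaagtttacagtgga
Cyp1b1: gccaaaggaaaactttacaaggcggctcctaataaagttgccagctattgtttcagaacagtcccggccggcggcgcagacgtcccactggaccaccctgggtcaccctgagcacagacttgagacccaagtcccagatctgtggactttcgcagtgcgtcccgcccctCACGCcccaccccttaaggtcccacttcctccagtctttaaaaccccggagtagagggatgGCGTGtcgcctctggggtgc
On both strands, GCGTG stood in 12 of the 45 member promoters and in 25.9% of all 33469 promoters. TATAAA stood in 12 of 45 and in 12.9%, the glucocorticoid hexamer TGTTCT in 6 of 45 and in 17.5%, and CCAAT in 20 of 45 and in 34.0%. None of these motifs contains another. A match in these letters is a description of the window and not a bound site.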

How the data were processed

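RNA of 12 pools was hybridised to single-colour Agilent rat arrays, 1 array per pool. Per the file headers, the processed signal is an intensity from Feature Extraction 9.5.1.1, background-subtracted and detrended, with no normalization between arrays, and other columns flag outliers and spots well above background. The deposited value table of the authors is a normalized intensity; heart and blood were normalized separately, per the labels, and it served as an alternative only.

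Outlier-flagged spots were dropped, log2 values of a probe's spots were averaged, and log2 of the array's 75th percentile was subtracted. A probe counted as well above background when the flag held for at least 50% of its spots. Testing in a tissue required that all 3 arrays of 1 or both groups measured the feature well above background. Each gene symbol had 1 probe, the brightest passing one, chosen without the groups. limma 3.58.1 in R 4.3.3 gave two-sided moderated tests with Benjamini-Hochberg adjustment, and an adjusted p below 0.05 over all features of a comparison is called past the threshold. A rank test of 3 against 3 pools cannot go below 0.1. Of the 68 member probes, 57 were named by accession, 6 by symbol, 2 by synonym and 3 by the file. The members and lists were chosen with earlier results of these data known. All members well above background on at least 1 array are named with values; from each list the 2 tested genes with the smallest p in a tissue are named, and a few set in advance. Pdk4, Abcc2, Tiparp, Cyp20a1, Cyp27b1 and the further redox partners and receptors of blood were named after their values were seen. Some list genes are withheld for evaluation and not reported here.

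Tested on simulated data (50 genes per size), the heart fit found 38% of the 2-fold changes and 86% of the 4-fold ones, and 4.46% of its calls were false; for the blood fit these were 20%, 74% and 3.03%. Background, scaling and filter were not simulated. A smaller share of features was changed than passed the threshold in the data (8.57% in heart, 67.4% in blood), so these rates need not carry over, least of all to blood. No 2 arrays held identical values; their small number limits the precision. Figures were drawn with matplotlib.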

Additional observations from a re-analysis of the deposited data

Results flagged for a closer look

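For 10 members the drug difference in heart differed from that in blood in 1 limma fit of the 12 arrays, and each is listed with heart minus blood on the log2 scale. The value was 6.64 for Cyp2e1, 2.99 for Cyp4f1, 2.56 for Cyp4b1, 2.52 for Cyp1b1 and 2 for Cyp2j3, none of which a blood array measured above background. It was 1.97 for Cyp2c37, measured on 1 heart array. For members measured in both tissues it was 1.88 for Cyp2t1, 1.55 for Cyp4f6, -1.64 for Cyp2j4 and -0.82 for Por, whose call was lost in 10 of the 12 fits without 1 pool and in 3 of 12 other alternatives. The brightness of the blood groups, given with the blood results, moves with all of these, and its part was not tested.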

How the results depend on the processing

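Counts past the threshold over all features and members moved as follows, with the causes not tested. In heart, features were 735 with no scaling (225 higher, 510 lower), 292 with no filter on dim probes, 269 on the first slide alone and 525 to 1385 without 1 pool; array median scaling gave 1040 higher and 576 lower. Heart members were 1 with no scaling, with no filter and on the first slide, each time Cyp2e1, and 1 to 4 without 1 pool. Blood features were 1422 with normexp, 24674 with no filter and 8340 to 10625 without 1 pool; blood members were 3, 41 and 12 to 13, and 6 with no scaling. For the difference between tissues, features were 1871 with normexp, 18898 with no filter, 5242 with the stricter filter, 5652 on the first slide and 7721 to 9632 without 1 pool; members were 4 with normexp, 6 with no scaling, 31 with no filter, 3 with the stricter filter, 4 over features detected in both tissues (chosen after seeing the data) and 9 to 12 without 1 pool. For vehicle heart minus blood, features were 29982 with no filter, 7532 with the stricter filter and 15601 to 16054 without 1 pool; members were 47, 4 and 16 to 18.

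Signs turned as follows where the value was past the threshold under either setting. In blood with no scaling the difference was 0.1 for Cyp2t1, 0.38 for Cyp4f6, 0.02 for Cyp4a2, 0.29 for Cyp2b1, 0.94 for Cyp2d4, 0.74 for Cyp2b15, 0 for Cyp2c37, 0.58 for Hmox1, 1.23 for Ephx1, 0.29 for Ugt1a6, 0.04 for Cyp27b1, 0.97 for Cyb5r3 and 0.4 for Rxra. Heart minus blood with no scaling was -0.19 for Cyp4f6 and -1.72 for Cyp4f5; of values past the threshold under neither setting it turned to -1.02 for Cyp2d4, -0.95 for Cyp2b15, -0.51 for Cyp2b1, -0.37 for Cyp2b12, -0.3 for Cyp4f17, -0.23 for Cyp2c11 and -0.22 for Cyp4a2. Vehicle heart minus blood was 0.25 for Cyp4f6, -0.93 for Cyp1b1 and -0.67 for Cyp2e1 with normexp, 1.26 for Cyp2j3 with quantile scaling, and 1.92 for Cyp2t1, 1.73 for Cyp4f6, 2.4 for Cyp2j3 and 2.32 for Cyp2d5 with no scaling. Cyp2e1 in heart kept its call in every alternative run, at 3.57 to 5.34.

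Deviations of same-numbered vehicle and amiodarone pools correlated at -0.16, -0.24 and 0.32 in heart and at 0.09, 0.17 and 0.31 in blood. Not every pair was above 0.1, and not every pool correlated best with its own number, so the numbers were not taken to pair the pools. With the replicate block, 696 features and 3 members were past the threshold in heart, 10723 and 15 in blood, 9196 and 14 for the difference, and 16227 and 18 for vehicle heart minus blood; Cyp1b1 in heart did not pass, and Cyp2s1, Cyp4a1 and Cyp2d4 in blood did. Depth limits the dim members: on the vehicle blood arrays no level below -1.53 was called well above background.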
